A study of Mus musculus with 6 samples.

Results

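Host transcripts of small RNAs are long RNAs whose genes hold, mostly in their introns, the genes of small nucleolar RNAs (snoRNAs), small Cajal body RNAs (scaRNAs) or microRNAs. They were taken by symbol from an ovary expression table: every small nucleolar RNA host gene (Snhg and a number), every microRNA host gene (Mir and a name ending in hg), and Gas5, Dleu2, Epb41l4aos, Tug1, Eldr, Zfas1, Dancr, Ftx and Jpx. This gave 39 of 33036 rows, of which 30 reached 0.5 TPM (transcript abundance scaled for transcript length and library total) in at least 3 of the 6 libraries and are described. Cytor, also named in the selection, was not among the rows. The selection works on symbols and a minimum level, but it was drawn up with earlier results of these data known.

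RNA of whole ovaries from female C57BL/6J mice was sequenced, with 3 libraries per group. One group stayed at the pressure of Lanzhou (1588 m in the series text, 1500 m in the titles; 83.56 kPa, with 17.8 kPa of oxygen). The other lived in a hypobaric chamber (6500 m in the titles and series text, 5000 m in the descriptions; 43.12 kPa, with 8.1 kPa of oxygen). Exposure lasted 15 days in the series text and 15, 16 or 17 days in the sample descriptions, the age was 8 weeks or 6 to 8 weeks, and the dark hours of the normal-pressure samples read 12, 13 and 14. Both groups received levonorgestrel and ethinylestradiol by gavage to synchronise the oestrous cycle, with doses of 0.1 and 0.02 mg/kg given for the hypoxia samples alone. Each group had 15 mice, and the labels do not say which mouse or pool gave each library, so the spread between libraries may be partly technical.

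A host gene is transcribed whole, and the small RNA is cut from it. SnoRNAs are released from introns as the host is spliced, and they guide chemical modification or processing of ribosomal RNA, while scaRNAs do the same for spliceosomal RNAs. The spliced host that remains usually codes for no protein, often starts with the terminal oligopyrimidine (TOP) sequence of ribosomal protein mRNAs, and is often removed by nonsense-mediated decay. MicroRNA hosts are cut in the nucleus by Drosha, and the hairpins mature into short RNAs that find their target mRNAs through the seed. The level of a spliced host therefore need not follow the level of its small RNA, and mature microRNAs are not measured in the table described here.

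The label was checked against RefSeq annotation of the GRCm38.p6 mouse build, in which all 39 symbols had a match. Of the 30 described genes, 26 held at least 1 small RNA gene on the same strand within their RefSeq span. SnoRNA or scaRNA genes alone lay in 17 of them, microRNA genes alone in 7, and both kinds in Snhg4 and Snhg10. Mir99ahg held none in the RefSeq span but held Mir99a, Mirlet7c-1 and Mir125b-2 in the longer GENCODE M21 span. Tug1, Jpx and Eldr held none in either annotation, so the name of host transcript does not describe these 3 genes. All 248 snoRNA genes counted were unevenly spread: 205 lay in Snhg14, and the other genes held 43 together, with 8 each in Gas5 and Snhg1.

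The microRNAs inside the hosts that passed the test below, and inside a pair of hosts that share seeds, are shown from RefSeq (GRCm38.p6) with the seed, bases 2 to 8, in capitals. Dleu2 lies on the minus strand of chromosome 14 and carries miR-15a at chr14:61632075-61632096 and miR-16 at chr14:61631936-61631957, which share 1 seed. Mir22hg lies on the plus strand of chromosome 11 and carries both arms of miR-22, at chr11:75463734-75463755 and chr11:75463772-75463793. Mir100hg on chromosome 9 and Mir99ahg on chromosome 16 are separate genes that carry sister clusters: miR-100 at chr9:41531437-41531458 and miR-99a at chr16:77598940-77598961 share 1 seed, and the mature miR-125b-5p is the same in both.
mmu-miR-15a-5p: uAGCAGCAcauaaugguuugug
mmu-miR-16-5p: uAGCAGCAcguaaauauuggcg
mmu-miR-22-5p: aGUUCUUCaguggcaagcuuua
mmu-miR-22-3p: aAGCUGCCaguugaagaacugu
mmu-miR-100-5p: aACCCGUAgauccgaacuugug
mmu-miR-99a-5p: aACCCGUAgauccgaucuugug
mmu-miR-125b-5p: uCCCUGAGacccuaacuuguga

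The RNA starts of the host genes were searched for a TOP sequence, meaning a C at the annotated first base followed by at least 4 pyrimidines, read on the gene's own strand. RefSeq promoter sequence was used for 27 of the 30 genes. The letters stood exactly at a start in Gas5, Snhg7, Snhg8 and Jpx, that is at 4 of 33 annotated starts (12.1%), against 2.51% of all 32851 promoters in the RefSeq table. Within 5 bases either side of the start they were found at 10 of 33 starts (30.3%), against 18.3% of all promoters. Counted by gene, at 1 or more starts, this was 10 of 27 host genes (37%) and 28 of 58 cytosolic ribosomal protein genes (48.3%). Exactly at a start, the counts by gene were 4 of 27 (14.8%) and 14 of 58 (24.1%). The windows of 30 bases around 3 snoRNA host starts are shown because these genes carry the letters at the annotated base: Gas5 at chr1:161035156-161035185 on the plus strand, Snhg7 at chr2:26640225-26640254 and Snhg8 at chr3:123508317-123508346 on the minus strand. Capitals mark the C and the pyrimidines after it. A match is a description of the letters only.
Gas5: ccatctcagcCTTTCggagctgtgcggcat
Snhg7: gatgctcggcCTCTCggcagccatggcggc
Snhg8: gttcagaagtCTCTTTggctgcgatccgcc

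The host transcripts spanned a wide range of levels, and Gas5, named for its rise in growth-arrested cells, was the most abundant. Gas5 stood at 201, 134 and 175 TPM under normal pressure and 161, 173 and 167 TPM under hypoxia. The hypoxia values of Gas5 all lay within the normal-pressure range. Tug1 came next, and the lowest described gene, Mir670hg, averaged 2.83 TPM over the 6 libraries. Together the 39 rows took between 0.0849% and 0.106% of all TPM under normal pressure, and between 0.106% and 0.114% under hypoxia.

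**Figure D1:**
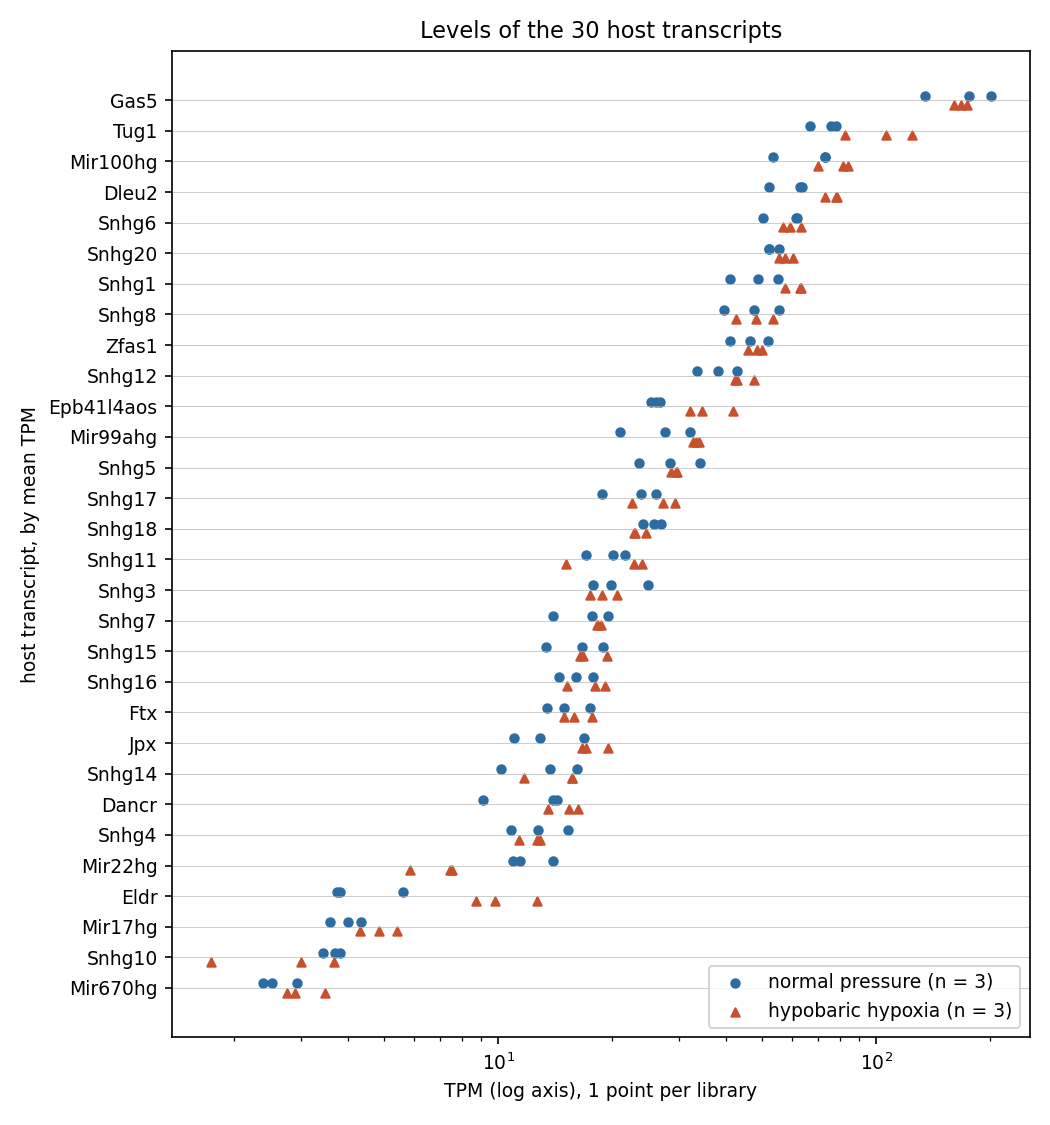
TPM of each of the 30 described host transcripts in every library, on a log axis, with normal pressure as circles and hypobaric hypoxia as triangles (n = 3 each), ordered by mean level. The groups lie apart for 7 genes (Eldr, Mir22hg, Tug1, Dleu2, Epb41l4aos, Snhg1 and Mir99ahg) and overlap for the others.

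Of the 30 host transcripts, 4 rose and 1 fell under hypoxia. Eldr, Epb41l4aos, Tug1 and Dleu2 were higher and Mir22hg was lower by limma's test on log2(TPM + 1), at a Benjamini-Hochberg adjusted p under 0.05 over the 17120 features with at least 1 TPM in at least 3 libraries. The 5 called genes are 16.7% of the 30, against 18.3% called among all features tested. The 4 higher are 13.3%, against 11.1% of all features, and the 1 lower is 3.33%, against 7.2%. The groups did not overlap in 7 of the 30 (23.3%), against 39.2% of all features tested. In this fit, these shares lie near or below the background. The median log2 fold change of the 30 was 0.11 and that of all features tested was 0.08, with 24 of the 30 values above 0, as were 63.2% of all features tested. Without normal-pressure library 2, 16 of the 30 were above 0 (50.2% of all features), and after median-ratio scaling of the TPM columns 18 were (51.1%).

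All counts rest on 1 test in 6 libraries, and they change when 1 library is left out or the scaling is changed. Limma's variance moderation was refitted each time and differed between settings. A changed count therefore cannot be put down to the library or the scaling alone. With hypoxia library 2 left out, Eldr alone was higher (3.33%, against 6.92% of all features), and Mir22hg and Snhg10 were lower. With normal-pressure library 1 left out, 7 of 30 were higher (23.3%, against 10.5% of all features in that setting). Over all features, 1906 were called higher and 1233 lower, and after median-ratio scaling these counts were 2761 and 3135. Among 1616 long noncoding features tested, 178 were higher and 78 lower, beside 11.1% and 7.2% of all features tested.

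**Figure D2:**
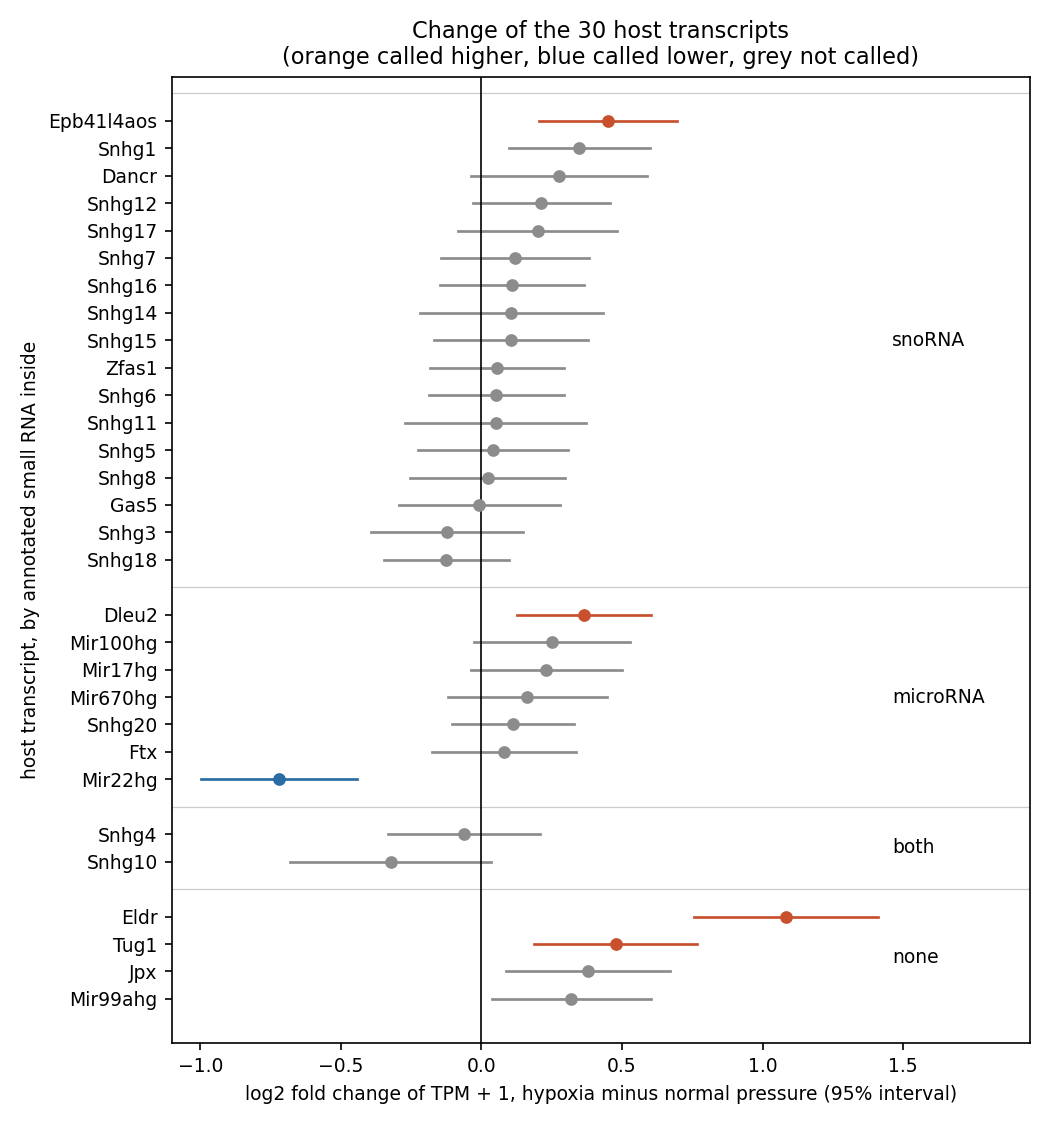
Log2 fold change of TPM + 1 (hypoxia minus normal pressure) with its 95% confidence interval from limma for the 30 host transcripts, grouped by the small RNA genes that RefSeq places inside them (the snoRNA block includes scaRNA genes). Eldr at 1.08 and Mir22hg at -0.72 lie farthest from 0, and 25 genes in grey did not pass the test.

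Eldr, a long noncoding RNA named for its place downstream of the Egfr gene, had the largest fold change of the 30. It stood at 3.82, 3.74 and 5.61 TPM under normal pressure (mean 4.39 ± 1.06, SD, n = 3) and at 9.79, 12.7 and 8.71 TPM under hypoxia (10.4 ± 2.06, SD, n = 3). Every hypoxia library lay above every normal-pressure library. On the log2(TPM + 1) scale the rise was 1.08 (SE 0.15), or 2.12-fold with a 95% interval from 1.69 to 2.66, with an adjusted p of 0.000200 by limma. It passed the test under all 15 alternative settings, with adjusted p-values from 9.35e-16 to 0.0318. The lowest came with the replicate number as a block. There limma's variance moderation relied almost wholly on the trend over all features. That value is therefore not read as stronger evidence.

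Eldr lies on the minus strand at chr11:16934709-16951282 and shares its promoter region with Fbxo48, an F-box gene that starts 93 bases away on the other strand. Fbxo48 was low, at 0.65, 0.58 and 1.32 TPM under normal pressure and 1.81, 1.72 and 1.83 TPM under hypoxia. All 3 hypoxia values were above the normal-pressure values. Its hypoxia libraries alone carry it past the minimum of 1 TPM in 3 libraries, so its test is given at the minimum of 0.5 TPM, which all 6 libraries reach: it rose by 0.61 on the log2(TPM + 1) scale (SE 0.15, adjusted p = 0.0172 by limma). Egfr, which encodes the epidermal growth factor receptor through which ovulatory signals reach cumulus cells, lies on the same chromosome next to Eldr. It averaged 40.5 ± 5.14 TPM under normal pressure and 51.4 ± 3.29 TPM under hypoxia (SD, n = 3), and its log2 fold change of 0.34 did not pass the test (adjusted p = 0.0513 by limma).

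Tug1, an abundant and conserved long noncoding RNA that male mice need for fertility, was at 66.9, 78.4 and 75.7 TPM under normal pressure and 82.4, 124 and 106 TPM under hypoxia. The groups did not overlap, but hypoxia library 1 lay only just above the highest normal-pressure library. The rise was 0.48 on the log2(TPM + 1) scale (SE 0.14, adjusted p = 0.0236 by limma). Tug1 did not pass in 6 of the 15 alternatives: without hypoxia library 2 (adjusted p = 0.144), without normal-pressure library 2 (0.0612), without a filter on low values (0.136), and after median-ratio scaling (0.138), protein-coding total scaling (0.0844) or quantile normalization (0.0639). Its log2 fold change was 0.39, 0.44 and 0.47 under those 3 rescalings, and its adjusted p ran from 0.000857 to 0.144 over the alternatives. Morc2a, which starts 377 bases away in the other direction, did not pass, with a log2 fold change of 0.06.

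Epb41l4aos, a short gene of 1098 bases on chromosome 18 with 1 annotated snoRNA gene inside it, was the only snoRNA host that rose. Its values of 26.1, 25.3 and 26.8 TPM under normal pressure lay close together, and those under hypoxia were 34.6, 41.8 and 32.1 TPM. All 3 hypoxia values were above all 3 normal-pressure values. The rise was 0.45 on the log2(TPM + 1) scale (SE 0.12, adjusted p = 0.0131 by limma). Without hypoxia library 2 the adjusted p was 0.132, the highest of a range from 0.00169 to 0.132 over the alternatives.

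Dleu2, the host of miR-15a and miR-16-1, takes its name from the region deleted in human lymphocytic leukaemia, and its microRNAs hold back the cell cycle. It stood at 63.7, 52.0 and 63.0 TPM under normal pressure (59.6 ± 6.58, SD, n = 3) and at 78.4, 78.7 and 73.0 TPM under hypoxia (76.7 ± 3.22, SD, n = 3). The hypoxia libraries were all higher than the normal-pressure libraries. The rise of 0.36 on the log2(TPM + 1) scale (SE 0.11) passed narrowly, with an adjusted p of 0.0335 by limma. It did not pass when hypoxia library 1, 2 or 3 was left out (adjusted p = 0.121, 0.134 and 0.0519), and its range over the alternatives was 0.00179 to 0.134.

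The Dleu2 promoter, 250 bases before to 50 after its start, held the letters ACGTG on both strands, as the palindrome shown here in part. ACGTG is a form of the core of the element that hypoxia-inducible factors bind, and it is common. Other forms of that core were not searched. On either strand ACGTG is held by 19.6% of all RefSeq promoters and by 8 of 33 host starts (24.2%). The host starts with a match belong to 8 of the 27 host genes searched. The Dleu2 window at chr14:61682534-61682564, minus strand, starts its capitals 178 bases before the RNA start, and they mark ACGTG as read on the opposite strand, with the second match overlapping it. The promoter windows of Eldr and Tug1 do not hold these letters, and that of Mir22hg has 1 match, 23 bases after the start.
Dleu2: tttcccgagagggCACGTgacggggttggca

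Mir22hg, the host of miR-22, was the only host transcript that fell. It stood at 11.4, 10.9 and 13.9 TPM under normal pressure (12.1 ± 1.62, SD, n = 3) and at 7.45, 7.53 and 5.85 TPM under hypoxia (6.94 ± 0.948, SD, n = 3). No hypoxia library reached the lowest normal-pressure library. The log2 fold change on TPM + 1 was -0.72 (SE 0.13, adjusted p = 0.00131 by limma), a ratio of 0.607 with a 95% interval from 0.501 to 0.735. It passed under all 15 alternatives, with adjusted p-values from 2.34e-07 to 0.0390. The lowest, from the replicate block, has the limit given for Eldr. The Mir22hg gene, at chr11:75461539-75466690, overlaps Tlcd2 on the same strand. Tlcd2 averaged 6.73 TPM under normal pressure and 7.67 TPM under hypoxia and did not pass (log2 fold change 0.17).

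**Figure D3:**
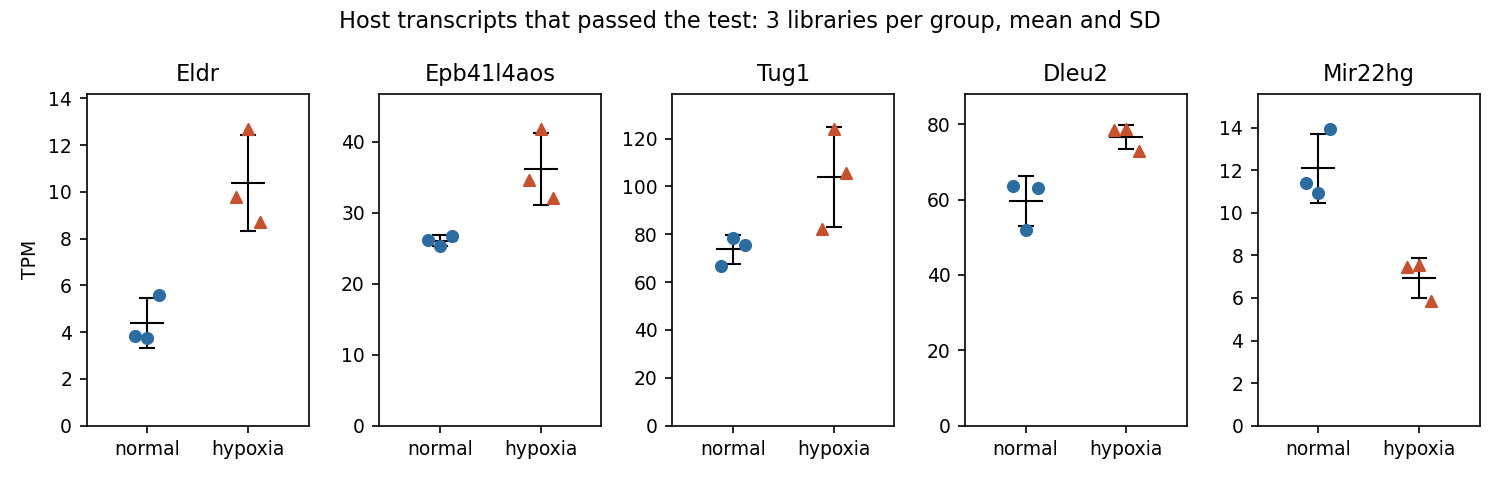
TPM of the 5 host transcripts that passed the test, 1 panel per gene from 0 on a linear axis, with the 3 libraries of each group as points and the mean and SD as bars. The hypoxia points lie above all normal-pressure points for Eldr, Epb41l4aos, Tug1 and Dleu2, and below them for Mir22hg.

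The microRNA hosts thus held 1 gene that rose, 1 that fell and 5 that did not pass. Mir100hg, the third most abundant of the 30, was at 73.1, 53.4 and 73.0 TPM under normal pressure and 81.9, 70.3 and 84.1 TPM under hypoxia. Its groups overlapped, and its log2 fold change of 0.25 had an adjusted p of 0.1998 by limma. Mir99ahg, its sister cluster, was at 32.2, 21.0 and 27.7 TPM and then at 34.0, 33.4 and 32.7 TPM. The groups of Mir99ahg did not overlap, with the normal-pressure libraries spread far wider (SD 5.65 against 0.625), and its log2 fold change of 0.32 did not pass (adjusted p = 0.110 by limma). It passed in 5 of the 15 alternatives, over which its adjusted p ran from 0.0197 to 0.277.

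Mir17hg, the host of the growth-promoting miR-17 cluster, averaged 3.98 TPM under normal pressure and 4.85 TPM under hypoxia. Snhg20, named as a snoRNA host, holds Mir6516 in its RefSeq span. Its GENCODE M21 span also holds another small RNA gene, Gm26083. Snhg20 was at 52.1, 52.1 and 55.4 TPM and then at 60.0, 57.3 and 55.2 TPM. Its groups overlapped, with a log2 fold change of 0.11. Ftx, a noncoding gene of the X-inactivation centre, averaged 15.3 and 16.2 TPM, and Mir670hg averaged 2.61 and 3.05 TPM. Jpx, an activator of Xist from the same centre, holds no small RNA and was at 13.6 ± 2.996 TPM under normal pressure and 17.8 ± 1.54 TPM under hypoxia (SD, n = 3). Its log2 fold change of 0.38 did not pass (adjusted p = 0.0672 by limma), and it passed in 4 of the 15 alternatives.

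Among the 17 snoRNA or scaRNA hosts without microRNAs, Epb41l4aos passed the test and 16 did not. Their log2 fold changes ran from -0.12 to 0.45 with a median of 0.11, and 14 were above 0. Without normal-pressure library 2, 6 of the 17 were above 0 and the median was -0.028. Snhg1, the host of 8 snoRNA genes including Snord22, was nearest to passing. It was at 54.8, 40.9 and 48.7 TPM under normal pressure and 57.5, 63.3 and 62.9 TPM under hypoxia. Its groups did not overlap, and the log2 fold change of 0.35 (SE 0.12) had an adjusted p of 0.0522 by limma. It passed in 7 of the 15 alternatives, over which its adjusted p ran from 0.0185 to 0.164.

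After Gas5 and apart from Snhg1, the most abundant snoRNA hosts had overlapping groups. Snhg6, the host of Snord87, was at 61.6, 50.2 and 61.5 TPM and then at 59.2, 63.2 and 56.8 TPM. Snhg8, the host of Snora24, was at 47.6, 39.5 and 55.4 TPM and then at 42.5, 48.0 and 53.5 TPM. Their log2 fold changes were 0.05 and 0.02. Zfas1, the host of Snord12, was at 46.3, 40.9 and 51.8 TPM and then at 45.7, 50.0 and 48.4 TPM. Snhg12, the host of 4 snoRNA genes, was at 42.8, 33.5 and 38.1 TPM and then at 42.3, 42.7 and 47.6 TPM, with a log2 fold change of 0.21 (adjusted p = 0.216 by limma). For Gas5 the log2 fold change was -0.01, with a 95% interval from -0.29 to 0.28.

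The remaining hosts were less abundant. Dancr, known in human epidermis for holding progenitor cells undifferentiated, averaged 12.5 TPM under normal pressure and 15.1 TPM under hypoxia, with a log2 fold change of 0.28. Snhg14, the imprinted host that overlaps Ube3a on the other strand, averaged 13.4 and 14.3 TPM. Snhg5, Snhg7, Snhg11, Snhg15, Snhg16 and Snhg17 had log2 fold changes from 0.04 to 0.20, and Snhg3 and Snhg18 were both at -0.12. Of the 2 hosts of both kinds, Snhg4 was at -0.06 and Snhg10, which holds Scarna13, was at -0.32, the lowest of the 25 that did not pass. Snhg10 averaged only 3.23 TPM, and its value depended on single libraries. It was -0.10 without hypoxia library 3, which was at 1.74 TPM, and -0.49 without hypoxia library 2.

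Several hosts share a promoter region with a coding gene on the other strand. Sema5a and Glrx5 passed the test while the hosts beside them did not. Sema5a, a semaphorin gene, starts 148 bases from Snhg18. It was at 72.5, 63.6 and 72.1 TPM under normal pressure and 108, 120 and 108 TPM under hypoxia. It rose by 0.68 on the log2(TPM + 1) scale (adjusted p = 0.000456 by limma), while Snhg18 averaged 25.7 ± 1.36 TPM and 23.4 ± 0.993 TPM (SD, n = 3). Glrx5, a mitochondrial iron-sulphur cluster protein that starts 409 bases from Snhg10, fell from 35.3 ± 3.39 to 27.8 ± 0.297 TPM (SD, n = 3), with a log2 fold change of -0.33 and an adjusted p of 0.0451 by limma. The partners of Gas5 (Zbtb37), Zfas1 (Znfx1) and Snhg1 (Slc3a2) did not pass, with log2 fold changes of 0.25, -0.0020 and -0.03. Differences between partners were not tested, and Snhg10 moved the same way as Glrx5 (log2 fold change -0.32, adjusted p = 0.198 by limma). The sources used here do not say whether reads were counted by strand. Reads may therefore be divided uncertainly between genes that overlap on opposite strands. These are Snhg6 with Mcmdc2, Dleu2 with Trim13 and Kcnrg, Snhg14 with Ube3a, Snhg16 with St6galnac2, Zfas1 with Znfx1, and Gas5 with Zbtb37. Mir22hg with Tlcd2, Snhg3 with Rcc1, and Snhg14 with Snrpn and Snurf overlap on the same strand. Their shared reads may be divided uncertainly even if reads were counted by strand.

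The table also lists 6 small RNA genes that lie inside described hosts. Snora73a and Snora73b, the U17 snoRNAs that Snhg3 holds and that act in ribosomal RNA cleavage, were far above their host: Snora73a averaged 4993 ± 618 TPM under normal pressure and 5522 ± 362 TPM under hypoxia, and Snora73b 6476 ± 1403 and 7609 ± 999 TPM (SD, n = 3). Neither passed, with log2 fold changes of 0.15 and 0.25, and Snhg3 averaged 20.9 and 18.9 TPM. The sequences of this pair, from GENCODE M21, agree at 198 of 205 positions, so how reads were divided between them is uncertain. Snora74a, inside Snhg4, was at 2119, 2500 and 1967 TPM and then at 2663, 2526 and 2628 TPM, with separate groups and a log2 fold change of 0.25 that did not pass (adjusted p = 0.271 by limma). These snoRNAs are far shorter than most transcripts, and TPM divides by length, so a few reads can give a high TPM.

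Snora43, inside Snhg7, was at 188, 89.4 and 31.9 TPM under normal pressure and was listed at 0 in all 3 hypoxia libraries. Its host Snhg7 was at 17.1 ± 2.83 TPM and 18.4 ± 0.187 TPM (SD, n = 3), with a log2 fold change of 0.12 that did not pass. Snora43 passed the minimum level through its normal-pressure libraries alone, so no test is given, nor a fold against a group listed at 0, and the normal-pressure values themselves were widely spread. Snora43 is an H/ACA snoRNA, and its sequence from the GENCODE M21 transcripts at chr2:26637847-26637985, minus strand, is shown because it is the only 1 of these 6 rows that is above 0 in every library of 1 group and listed at 0 throughout the other. Capitals mark the ACA that ends this class of snoRNA, 3 bases before the end.
Snora43: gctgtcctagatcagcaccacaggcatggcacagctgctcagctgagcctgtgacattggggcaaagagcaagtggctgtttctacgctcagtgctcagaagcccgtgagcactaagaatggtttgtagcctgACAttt

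Snora16a, inside Snhg12, was at 67.7 TPM in normal-pressure library 1 and listed at 0 in the other 5, so zeros of these short RNAs also occur within a group. Mir125b-1, inside Mir100hg, reached at most 1.14 TPM. Of the 9 host genes below the minimum, Snhg9 was at 6.10 TPM in normal-pressure library 3 and at 8.76 TPM in hypoxia library 2 and was listed at 0 in the other 4. The other 8, Mir155hg, Mirc35hg, Mir9-3hg, Mir133a-1hg, Mir124a-1hg, Mir1a-1hg, Mir205hg and Snhg7os, averaged at most 0.317 TPM over the 6 libraries.

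The genes that act with these hosts were counted in 5 lists. Cytosolic ribosomal protein genes, whose mRNAs carry the TOP sequence, gave 0 of 79 called, with a median log2 fold change of 0.15, and 15 other TOP mRNAs gave 0 called with a median of 0.10. Of 19 nonsense-mediated decay factors, Upf2 and Smg1 rose, with log2 fold changes of 0.38 and 0.36 (adjusted p = 0.0413 and 0.0459 by limma), and 17 did not pass. Of 20 snoRNP proteins and assembly factors, 1 changed: Nhp2, a core protein of H/ACA snoRNPs, fell from 48.4 ± 4.27 to 32.2 ± 2.06 TPM (SD, n = 3; log2 fold change -0.57, adjusted p = 0.00199 by limma). Of 16 microRNA processing and effector genes, Dicer1, which cuts microRNA hairpins, rose by 0.47 (adjusted p = 0.0127 by limma) and Ago1, which carries mature microRNAs, rose by 0.37 (adjusted p = 0.0317). The list medians were 0.09, 0.08 and 0.22, beside 0.08 for all features tested. Among those features 11.1% were called higher and 7.2% lower, and the few calls are not read as a change of a list.

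**Figure D4:**
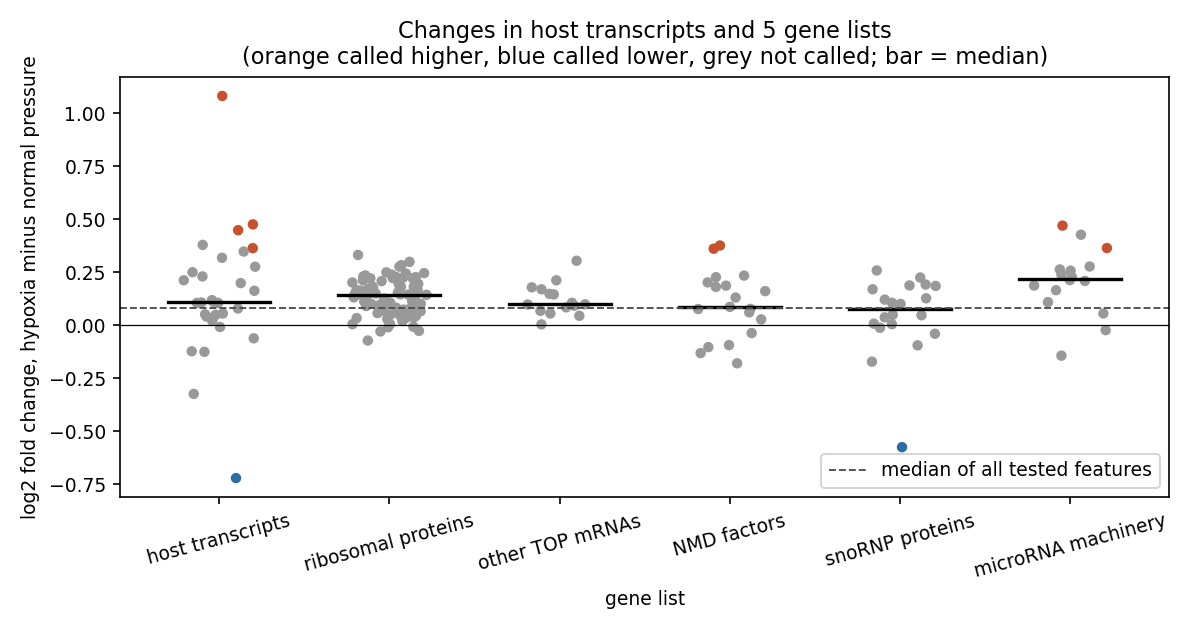
Log2 fold change (hypoxia minus normal pressure) of each host transcript and each gene of the 5 lists, with called genes in colour, a black bar at each list's median and a dashed line at the median of all features tested (0.08). Eldr at 1.08, Mir22hg at -0.72 and, by a narrow margin, Tug1 at 0.48 lie outside the range of all 5 lists. In these lists Nhp2 at -0.57 is lowest and Dicer1 at 0.47 highest.

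The libraries and tissues behind these values differed. Normal-pressure library 2 was the lowest of its group for 24 of the 30 hosts, with 848 TPM summed over the 39 rows against 1034 to 1054 TPM in the other normal-pressure libraries and 1061 to 1134 TPM under hypoxia. It also had the smallest share of TPM in protein-coding features (37.3% against 42.2% to 45.7%). A single row, Zfp949, took 14.5% to 16.3% of all TPM under normal pressure and 10.2% to 13.7% under hypoxia. After scaling to the protein-coding total without that row, 5 hosts were higher (Eldr, Epb41l4aos, Dleu2, Snhg1 and Mir99ahg) and Mir22hg was lower. The hosts' share of protein-coding TPM was 0.226% to 0.242% under normal pressure and 0.241% to 0.261% under hypoxia. Leaving out normal-pressure library 2 kept Eldr, Epb41l4aos, Dleu2 and Mir22hg as calls.

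Cell type markers moved with the groups too, where 11.1% of all features tested were called higher and 7.2% lower. All 9 luteal markers tested fell (summed 4612 to 7094 TPM under normal pressure, 1954 to 2527 TPM under hypoxia), as did 4 of 4 adipose markers (98.1 to 135 and 48.5 to 96.1 TPM), 3 of 6 smooth muscle markers (645 to 695 and 472 to 550 TPM) and 1 of 5 oviduct markers (480 to 726 and 204 to 405 TPM). All 10 oocyte markers tested rose (111 to 143 and 179 to 218 TPM), as did 5 of 5 erythroid (247 to 447 and 1663 to 2240 TPM), 4 of 5 theca (129 to 204 and 228 to 259 TPM) and 2 of 9 granulosa markers (2174 to 2342 and 2644 to 2927 TPM). None of 7 macrophage (171 to 209 and 162 to 185 TPM), 2 leukocyte (6.89 to 10.3 and 7.91 to 9.40 TPM) or 5 endothelial markers (75.9 to 97.7 and 96.5 to 97.7 TPM) passed, and no marker in these lists was at 0 in every library. The sums cover every listed marker with a row, tested or not, so 11 oocyte, 7 leukocyte, 6 erythroid and 5 adipose markers. In whole ovaries, more cells of a type and more RNA per cell cannot be told apart. The part these cell types play in the host transcript values was not tested.

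**Figure D5:**
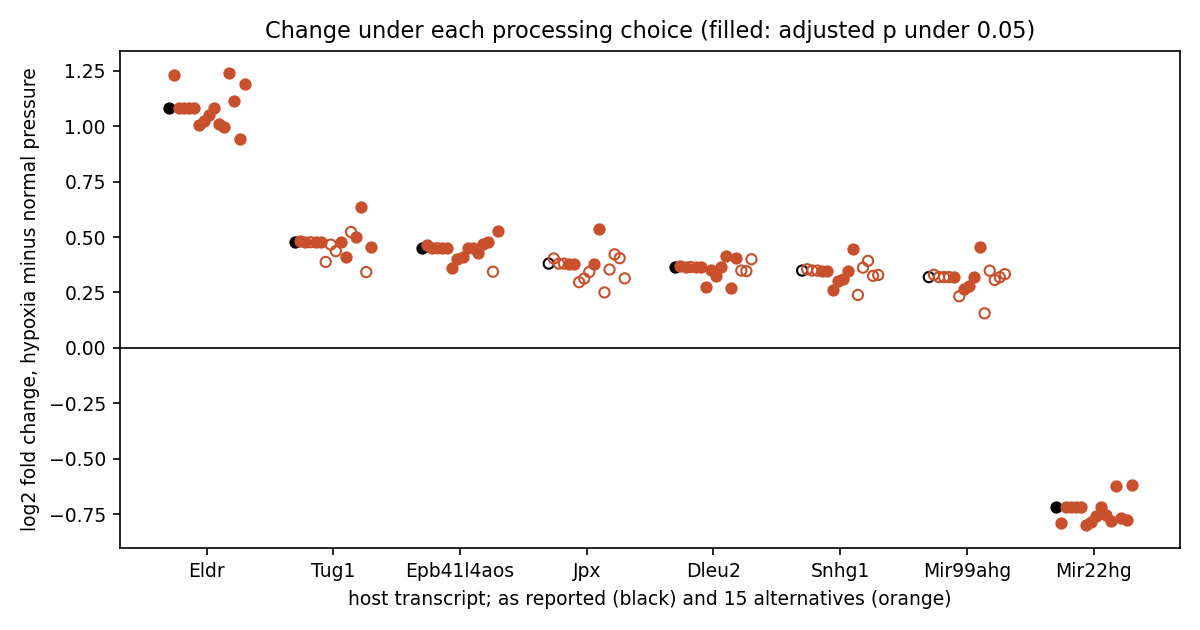
Log2 fold change (hypoxia minus normal pressure) of 8 host transcripts as reported (black) and under 15 alternative settings (orange), filled where the adjusted p was under 0.05. Eldr and Mir22hg are filled in every setting, and the others keep their direction and cross the threshold in some.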

How the data were processed

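The deposited table gives TPM for mRNA and lncRNA genes in 6 libraries, computed by the authors. HISAT2, Bowtie2, DESeq2 and the GRCm38.p6 build are named in the submitters' processing notes; for the counting tool, the annotation and the strand setting, the names were not given in the sources used here. TPM keeps no depth, so depth is unknown and no counting intervals are given. Values were used as deposited, as log2(TPM + 1), and features with at least 1 TPM in at least 3 libraries were tested with limma 3.58.1 (R 4.3.3, mean-variance trend, no covariates, two-sided, Benjamini-Hochberg over all features tested, called under 0.05). The fit was tested on simulated data. An exact permutation test of 3 against 3 cannot go below 0.1.

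Values of all libraries are given for every called host and the 12 most abundant; the others by means, range or count. Small RNA genes were placed by RefSeq and, as a second source, GENCODE M21. Divergent partners start within 1000 bases. The members and gene lists (ribosomal proteins, other TOP mRNAs, decay factors, snoRNP proteins, microRNA genes, cell type markers) were chosen with earlier results of these data known. Alternatives changed the pseudocount, filter, variance moderation, scaling, block or libraries.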

Additional observations from a re-analysis of the deposited data

How the results depend on the processing

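The lower call of Mir22hg and the higher call of Eldr held under all 15 alternatives. The number of hosts called higher, 4 as reported, was 1 with no filter on low values, 7 with robust variance moderation, and 1 to 7 with a library left out (1 without hypoxia library 2, 7 without normal-pressure library 1). The number called lower, 1 as reported, was 2 after median-ratio scaling (Snhg18 added) and 1 to 2 with a library left out. All 4 higher hosts were called in 7 alternatives, in 3 of them with no other host. Without a filter, Tug1, Dleu2 and Epb41l4aos had adjusted p-values of 0.136, 0.0894 and 0.0672 by limma. More features were tested there (33036), and the unadjusted limma p-values were higher too. They were 0.0030, 0.0050 and 0.0013 as reported and 0.0164, 0.0068 and 0.0036 without a filter. The cause of these and the other changes was not tested.

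With the replicate number as a replicate block, 7 hosts were higher (Jpx, Snhg1 and Mir99ahg added) and 1 lower. Deviations from the group mean had correlations of -0.03, 0.11 and -0.05 between same-numbered libraries. Between differently numbered libraries they ran from -0.08 to 0.11. With 3 libraries a group, these values cannot decide whether the numbers pair the libraries.

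Of 210 values of the 14 hosts given in full, 13 changed sign, all of hosts that did not pass. These were Gas5 after quantile normalization (0.038) and without a library (-0.17 to 0.12), Snhg6 after median-ratio scaling (-0.036) and without a library (-0.044 to 0.10), Snhg8 after median-ratio scaling (-0.066), quantile normalization (-0.020), protein-coding total scaling (-0.018) and without a library (-0.10 to 0.14), and Zfas1 after median-ratio scaling (-0.032) and without a library (-0.028 to 0.14). With 3 libraries a group and unknown depth, small changes could not be resolved.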
